A study of Caenorhabditis elegans with 2 samples.

Results

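Below the optimal peaks of a chromatin immunoprecipitation sequencing (ChIP-seq) profile of NHR-10 lay 2000 regions of lower signal, called next-ranked regions here. The authors' list for both replicates together, the pooled list, held 17445 different regions. The regions were chosen by pooled signal: the list was sorted by it, the optimal peaks, which took every rank before 995, were removed, and the 2000 regions that followed were kept. The 14451 regions below them are called weaker regions. Pooled signal, on a scale the sources used here do not state, was 31.8 to 49.6 with a median of 37.7 in next-ranked regions. In optimal peaks it was 49.6 to 333.1 with a median of 64.2, and in weaker regions it was 14.97 to 31.8. These values chose the regions and are given as a description.

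The libraries came from whole Caenorhabditis elegans larvae of strain OP239, grown to L4, the stage before adulthood, with males and females pooled. The strain carries the unc-119(ed3) mutation on chromosome III and the insertion wgIs239, from which NHR-10 fused to eGFP is made, so the immunoprecipitated protein was a tagged transgene product. There was 1 group with 2 biological replicates and no second condition, and whether the larvae came from separate cultures was not given. Every cell type of the larva contributed chromatin, so neither the tissue nor the share of cells behind a region can be told apart. The lists give no read counts, so depth was unknown, and intervals cover only the sampling of regions or genes.

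NHR-10 is a nuclear hormone receptor, a class of transcription factor that binds DNA through a zinc finger domain. In C. elegans it is known for switching on the propionate shunt, a route that breaks down propionate when vitamin B12 is scarce, together with the receptor NHR-68. The canonical route needs vitamin B12 and passes through methylmalonyl-CoA, while the shunt enzymes ACDH-1, ECH-6, HACH-1, HPHD-1 and ALH-8 make acetyl-CoA without it.

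The next-ranked regions included the upstream sequences of 2 shunt genes and of the receptor gene nhr-114, which is known as a regulator of the methionine and S-adenosylmethionine cycle. The summit of each of these regions with 50 bp on either side is shown because these regions place NHR-10 signal below the optimal list at 2 shunt genes and a receptor gene. The sequences are from ce11, 5′ to 3′ on the + strand. None of these 3 holds any of the 6 motifs searched, so they have no capitals.
ech-6 (chrIII:9753092-9753192): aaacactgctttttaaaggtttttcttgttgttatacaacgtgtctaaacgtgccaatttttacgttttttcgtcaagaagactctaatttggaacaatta
alh-8 (chrII:11728942-11729042): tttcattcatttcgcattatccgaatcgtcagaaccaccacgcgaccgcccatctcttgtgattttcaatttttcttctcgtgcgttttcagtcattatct
nhr-114 (chrV:4187028-4187128): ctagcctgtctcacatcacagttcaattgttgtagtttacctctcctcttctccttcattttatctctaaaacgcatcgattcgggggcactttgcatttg
The ech-6 summit lay 259 bp upstream of the nearest start of the gene, that of alh-8 63 bp upstream and that of nhr-114 125 bp upstream. The ech-6 and alh-8 summits were intergenic. The nhr-114 summit lay outside nhr-114, in an intron of another protein-coding gene.

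Other next-ranked regions held one of the motifs, which are in capitals below, in the orientation found on the + strand. F17H10.1 (read as its reverse complement) and lit-1 show TGATAA, the site of intestinal GATA factors. The region nearest ZK792.12 shows GAGAGA, ppm-2 shows the E-box CACGTG, and F52B10.3 shows TTCNNGAA, the unit of heat shock elements. All 5 were near the upper end of the next-ranked regions, at pooled ranks 997 to 1039.
F17H10.1 (chrX:13105005-13105105): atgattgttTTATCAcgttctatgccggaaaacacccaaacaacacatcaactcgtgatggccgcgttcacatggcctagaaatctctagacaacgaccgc
lit-1 (chrIII:13719221-13719321): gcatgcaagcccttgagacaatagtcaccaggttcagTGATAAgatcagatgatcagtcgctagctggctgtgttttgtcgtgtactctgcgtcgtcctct
ZK792.12, nearest gene (chrIV:11692569-11692669): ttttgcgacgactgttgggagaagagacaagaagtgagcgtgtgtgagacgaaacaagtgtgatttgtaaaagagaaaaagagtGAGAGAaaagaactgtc
ppm-2 (chrIII:4649632-4649732): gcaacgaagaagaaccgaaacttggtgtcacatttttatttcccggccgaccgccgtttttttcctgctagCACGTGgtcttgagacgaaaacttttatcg
F52B10.3 (chrX:2893365-2893465): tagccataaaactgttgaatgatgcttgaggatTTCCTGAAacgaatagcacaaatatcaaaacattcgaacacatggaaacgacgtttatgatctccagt
F17H10.1 and F52B10.3 had summits 186 and 84 bp upstream of the gene's start. The lit-1 summit lay 125 bp upstream of a start of lit-1, which encodes a Nemo-like kinase of Wnt signalling, in an intron. The ppm-2 summit lay 812 bp upstream of this protein phosphatase gene and 203 bp from an optimal summit. The region nearest ZK792.12 was intergenic, 1174 bp upstream of that gene and outside every promoter window.

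The signal of next-ranked regions followed that of optimal peaks without a gap. The next-ranked regions at the top were in an intron nearest the start of tent-5 (49.62), upstream of D2030.2 (49.62) and upstream of F52B10.3 (49.59). The last optimal peaks were at F55H12.7 (49.70), at cgh-1, which encodes an RNA helicase (49.67), and nearest egl-27 (49.64). At the lower end the last next-ranked regions lay at cal-7, nearest F41C3.2 and nearest unc-52, the perlecan gene, each at 31.8. The authors' −log10 q was 1.37 to 3.43 in next-ranked regions with a median of 2.09, and 341 of them (17.05%) had the value 3.43 that all optimal peaks had.

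Nearly all next-ranked regions had a region in each replicate list, but fewer were strong in both. A region of each list overlapped 1932 of the 2000 (96.6%, exact Clopper-Pearson 95% interval 95.7 to 97.4%), against 992 optimal peaks (99.8%), 6963 of 14451 weaker regions (48.2%) and 56.7% of all pooled regions. A further 21 were found in replicate 1 only, 47 in replicate 2 only, and 0 in neither. The replicate lists are long, with 21319 and 22317 regions, so a stricter measure was also used. A region counted as strong in a replicate when it overlapped 1 of that replicate's strongest regions, as many as optimal peaks and next-ranked regions together. Of the next-ranked regions 653 (32.65%, 30.6 to 34.8%) were strong in both replicates, 582 in replicate 1 only, 617 in replicate 2 only and 148 in neither. By this measure 915 optimal peaks (92.1%), 429 weaker regions (2.97%) and 11.4% of all pooled regions were strong in both. The pooled signal is made of the same reads as the replicate lists, so these shares have no test.

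Support was lower further down the ranks. In successive groups of 500 next-ranked regions, 62.2%, 37.2%, 18.6% and 12.6% were strong in both replicates. Overlap with any region of both lists was 99.2%, 97.6%, 97.0% and 92.6% in those groups. The drop was larger for strong replicate regions than for any overlap. Strong regions were limited to as many as optimal peaks and next-ranked regions together, while the full replicate lists are far longer. This choice of cutoffs and the shared reads favour such a drop, so nothing is concluded from it. The decline began within the optimal list, where 98.8% of the 497 peaks of higher signal and 85.3% of the 497 of lower signal were strong in both.

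**Figure D1:**
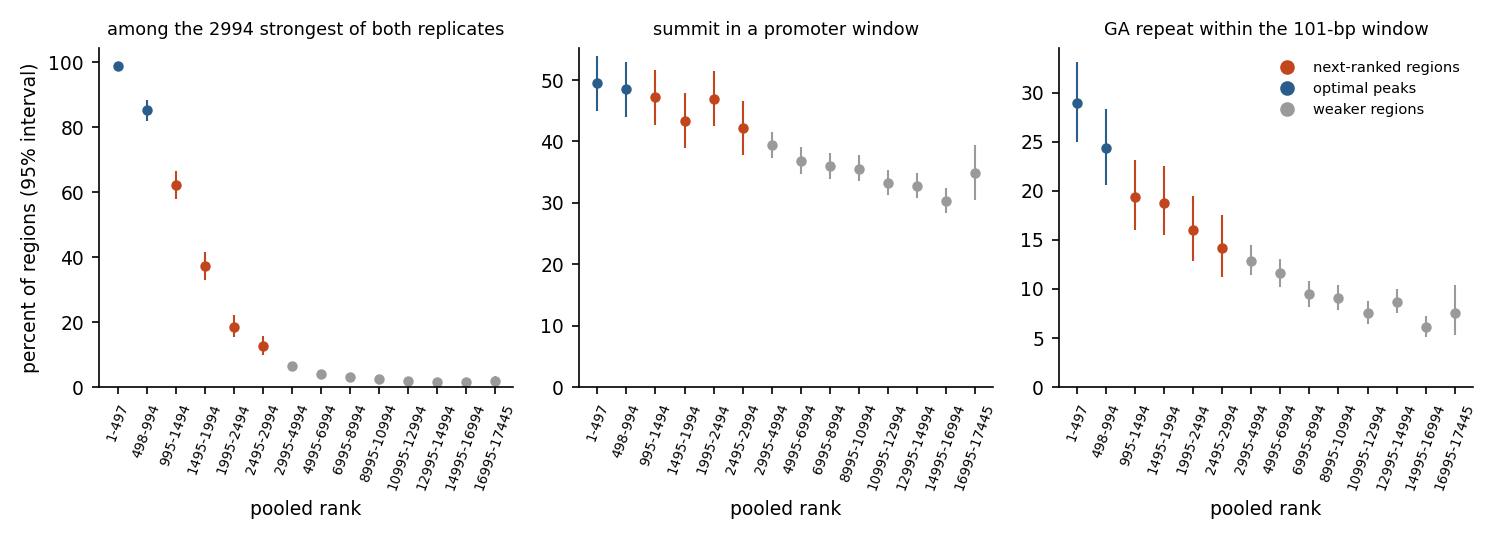
Percent of regions (y, points with 95% Clopper-Pearson intervals) by pooled rank (x, strongest on the left) that were strong in both replicates, had their summit in a promoter window, or held a GA repeat (the GAGAGA motif) within 50 bp of the summit. Replicate support dropped to 12.6% in the last group of next-ranked regions, while the promoter share lay between 42.2 and 47.2% in all 4 of their groups.

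The 2 replicates ranked some next-ranked regions very differently. The median rank was 2222 in replicate 1 and 2230 in replicate 2, and of the 1932 regions found in both lists 979 ranked higher in replicate 1 and 953 in replicate 2. The rank differed by 5-fold or more in 202 regions that ranked higher in replicate 1 and in 234 that ranked higher in replicate 2. The Spearman correlation of the 2 ranks was -0.197. Choosing regions by pooled signal, made of the same reads, itself favours a high rank in 1 replicate with a low one in the other. These differences therefore cannot be read as a trait of the regions, and they were not counted in optimal peaks or weaker regions. The summit in the 5′ untranslated region of pcf-11, a gene for mRNA 3′ end processing, ranked 20024 in replicate 1 and 377 in replicate 2. The one upstream of C29F3.7 ranked 15280 in replicate 1 and 534 in replicate 2. In contrast, F52B10.3 ranked 1114 in replicate 1 and 836 in replicate 2, and atf-7, which encodes a stress-related bZIP factor, ranked 1571 and 1224 in those lists. Pairs of ranks below are those in replicate 1 and then in replicate 2. Regions at adjacent pooled ranks could thus be near the top of both lists or of 1 only.

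**Figure D2:**
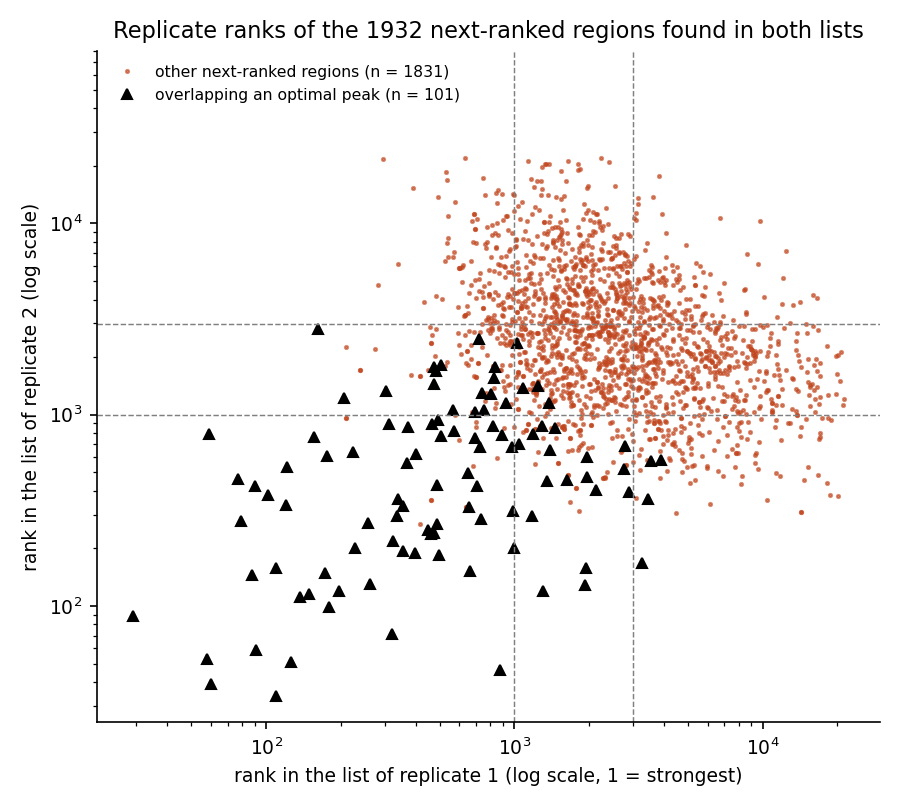
Rank in the list of replicate 1 (x) and replicate 2 (y), both on log scales, of the 1932 next-ranked regions with a region in both lists, with dashed lines at the number of optimal peaks and of optimal peaks and next-ranked regions together. The regions that overlap an optimal peak (triangles) lie mostly towards the lower left, where both ranks are strong, and the other 1831 (dots) spread to weak ranks in one list or the other.

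Most of the few next-ranked regions near the top of both replicate lists overlapped an optimal peak. A region counted as top-ranked in a replicate when it overlapped 1 of that replicate's strongest regions, as many as there were optimal peaks. Of the 2000, 73 (3.65%) were top-ranked in both replicates, against 537 optimal peaks (54.02%), 118 weaker regions (0.817%) and 4.17% of all pooled regions. Of those 73, 59 overlapped an optimal peak, and for all 59 the replicate region in each list was also the strongest one of an optimal peak. Over all next-ranked regions 5.05% overlapped an optimal peak, against 222 weaker regions (1.54%). Their summits lay 199 to 309 bp from an optimal summit, with a median of 204 bp. Examples were sma-9, which encodes a cofactor of TGF-beta signalling, with ranks 137 in replicate 1 and 111 in replicate 2 and a summit 200 bp from an optimal one, and C33A12.3, with ranks 692 and 757 and a summit 204 bp away.

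Without the regions that overlapped an optimal peak the support in both lists was 96.4% (1831 of 1899), and 29.3% (556) were strong in both replicates. Of them 14 were top-ranked in both (0.737%), against 0.817% of all weaker regions, including those that overlap an optimal peak. These 14 included lit-1 (ranks 904 and 857), vha-2, a subunit of the proton pump that acidifies vacuoles (853 and 597), and the region nearest ZK792.12 (703 and 866).

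The summits of next-ranked regions were in promoters slightly less often than optimal summits and more often than weaker ones. Promoter windows reached from 1000 bp before the start of a protein-coding transcript to 200 bp within it, and they covered 26.1% of the genome. They held 899 of 2000 next-ranked summits (44.95%, 42.8 to 47.2%), 487 optimal summits (49.0%) and 5043 of 14451 weaker summits (34.9%). The difference from optimal was -4.04 points (95% Newcombe interval -7.83 to -0.252, two-sided Fisher's exact p = 0.0391), and the difference from weaker was 10.1 points (7.75 to 12.4, p = 4.58e-18). By the same exact test the first difference no longer passed 0.05 with a window of 2000 bp (p = 0.153), with whole regions in place of summits (p = 0.0742), with the next 1000 regions (p = 0.106), without regions within 1000 bp of an optimal summit (p = 0.0887) or with only those strong in both replicates (p = 0.267). It kept the call in the other 4 alternatives, with -6.82 points for the next 4000 regions (exact p = 0.000113) and -4.18 to -3.87 points for a window of 500 bp and for regions ranked by 1 replicate alone. These p-values, and those below, describe lists of regions, which are not independent where they lie close together, and not animals.

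By gene structure, coding exons and 3′ untranslated regions held larger shares of next-ranked summits than of optimal ones, and intergenic sequence a smaller one. Coding exons held 9.75% of next-ranked, 3.82% of optimal and 24.2% of weaker summits. The 5′ untranslated regions held 3.95% of next-ranked, 4.23% of optimal and 2.41% of weaker summits. The 3′ untranslated regions held 9.45%, 5.73% and 6.73% in that order, and introns 24.9%, 25.8% and 30.7%. Intergenic sequence held 51.85% of next-ranked, 60.4% of optimal and 35.8% of weaker summits. These shares were not tested. The median distance from the summit to the nearest start was 852.5 bp in next-ranked regions, 785.5 bp in optimal peaks and 1024 bp in weaker regions.

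No chromosome's share of next-ranked regions passed the test against its share of optimal peaks. Chromosome X held 438 next-ranked regions (21.9%) and 240 optimal peaks (24.1%), a difference of -2.24 points (-5.51 to 0.921, adjusted p = 0.536 by Fisher's exact test with Benjamini-Hochberg adjustment over 6 chromosomes). Chromosome V held 18.4% of next-ranked regions and 15.6% of optimal peaks, a difference of 2.81 points (-0.0883 to 5.56, exact test, adjusted p = 0.352). The intervals leave room for differences of up to 5.56 points, so the shares are not shown to be equal. For scale, X has 13.7% of protein-coding genes and 17.7% of the sequence length, and V has 25.004% of the genes and 20.9% of the length. On X 38.8% of next-ranked summits were in promoter windows, and on the autosomes 46.7%. The X share was also the lower one in optimal peaks (40.8% and 51.6%) and in weaker regions (29.5% and 36.4%).

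**Figure D3:**
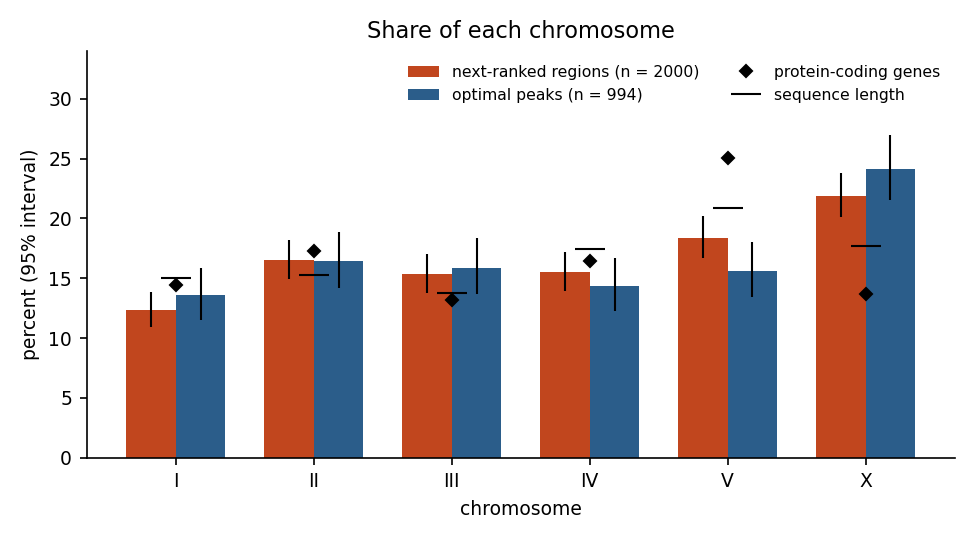
Percent of next-ranked regions (left bar) and of optimal peaks (right bar) on each chromosome, with 95% Clopper-Pearson intervals, and the shares of protein-coding genes (diamonds) and of sequence length (dashes). X holds 21.9% of next-ranked regions and 24.1% of optimal peaks, both above its 13.7% of genes.

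GA repeats and E-boxes were rarer at next-ranked summits than at optimal ones, while the difference in GATA sites did not pass the test. Each motif was searched on both strands in the window of 50 bp on either side of the summit, and the share of all tiles of the genome of the same length is given beside it. TGATAA was in 374 next-ranked windows (18.7%), 180 optimal windows (18.1%), 12.8% of weaker windows and 9.35% of tiles. Its difference from optimal was 0.59 points (-2.42 to 3.47, Fisher's exact test, adjusted p = 0.727 over 6 motifs). Within the optimal list TGATAA was in 14.5% of the 497 peaks of higher signal and 21.7% of the 497 of lower signal. In successive groups of 500 next-ranked regions its share was 20.2%, 18.4%, 17.6% and 18.6%, and these differences were not tested. GAGAGA was in 342 next-ranked windows (17.1%), 265 optimal windows (26.7%), 9.28% of weaker windows and 5.18% of tiles, a difference from optimal of -9.56 points (-12.8 to -6.40, exact test, adjusted p = 1.13e-08). In windows 300 bp beside the next-ranked summits TGATAA was in 9.25% and GAGAGA in 7.0%, both below their shares at the summits.

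The E-box CACGTG was in 93 next-ranked windows (4.65%), 79 optimal windows (7.95%) and 1.67% of tiles, a difference from optimal of -3.30 points (-5.33 to -1.47, exact test, adjusted p = 0.00128). GCGCAGGG, the core of the MEX sequence at which the dosage compensation complex is recruited to X, was in 3 next-ranked windows (0.15%), 11 optimal windows (1.11%) and 0.0285% of tiles, a difference from optimal of -0.957 points (-1.83 to -0.389, exact test, adjusted p = 0.00129). Both calls of the exact test were lost with the next 1000 regions (adjusted p = 0.0681 each) and with only the regions strong in both replicates (adjusted p = 0.108 for CACGTG and 0.18 for GCGCAGGG), and that of CACGTG also in windows of 30 bp on either side (adjusted p = 0.0803). AGGTCA, the hexamer bound by many nuclear receptors, was in 4.3% of next-ranked windows, 3.52% of optimal windows and 2.42% of tiles, a difference of 0.78 points (-0.781 to 2.16, exact test, adjusted p = 0.489). TTCNNGAA was in 4.2% of next-ranked windows, 4.53% of optimal windows and 7.16% of tiles, a difference of -0.327 points (-2.004 to 1.16, exact test, adjusted p = 0.727). The GC content of the windows also moved with rank, with medians of 39.6% in next-ranked regions, 44.6% in optimal peaks and 37.6% in weaker regions, and its part in the motif shares was not tested.

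**Figure D4:**
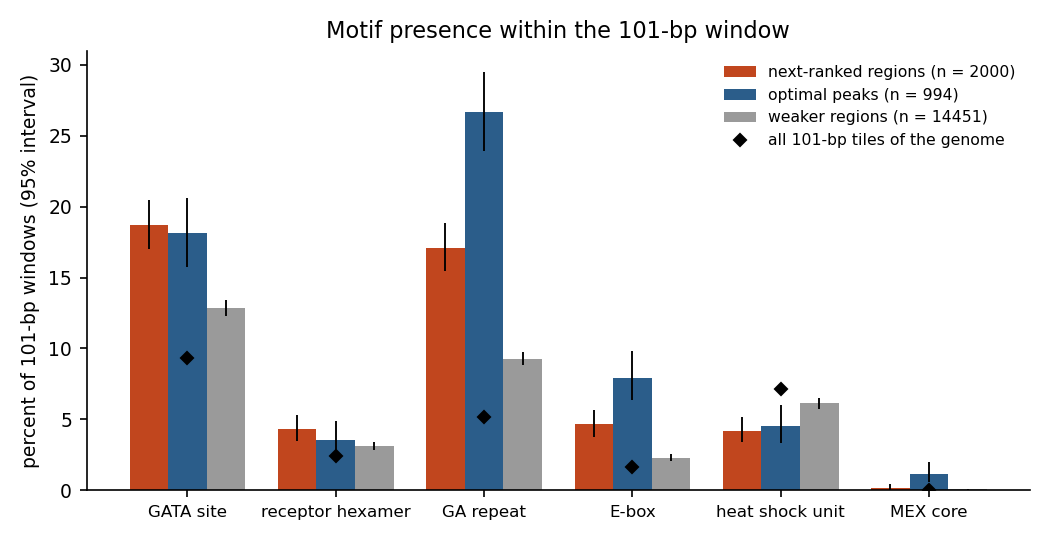
Percent of summit windows (50 bp on either side) that hold each motif in next-ranked regions, optimal peaks and weaker regions (bars from left to right, with 95% Clopper-Pearson intervals) and of all genome tiles of that length (diamonds). The GA repeat (GAGAGA) is in 17.1% of next-ranked and 26.7% of optimal windows, while the GATA site (TGATAA) is in 18.7 and 18.1%.

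Most genes with a next-ranked summit had no optimal summit, which is also true of protein-coding genes at large. A next-ranked summit lay in the promoter window of 993 of 19973 protein-coding genes (4.97%), and an optimal summit in that of 563 (2.82%). The 2 groups shared 90 genes, which are 9.06% of the genes with a next-ranked summit and 16.0% of those with an optimal summit. The other 903 genes with a next-ranked summit had no optimal one. The 9.06% lies above the 2.82% of all genes with an optimal summit, a difference that was not tested. In 47 of the 90 shared genes a next-ranked region overlapped an optimal peak. Of the 899 summits in windows, 744 were in the window of 1 gene and 155 in windows of more genes, which cannot be told apart. The gene lists below were picked with earlier results of these data known, so they are described by counts only, beside the 4.97% of all genes.

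The propionate shunt was split between the 2 classes of region. The next-ranked regions held ech-6, the enoyl-CoA hydratase of the shunt, at pooled rank 1427 (signal 43.4, rank 4365 in replicate 1 and 1138 in replicate 2). They also held alh-8, the last enzyme of the route, at pooled rank 1678 (signal 40.4, rank 1261 in replicate 1 and 2414 in replicate 2). The genes hphd-1 and hach-1 had optimal peaks at pooled ranks 164 and 563 instead. No pooled summit lay in the window of acdh-1, the acyl-CoA dehydrogenase that starts the route. The nearest pooled summit was 554 bp from a start of acdh-1 and, being outside the window, downstream of that start. The nearest next-ranked one was 34089 bp away. Among the regulators, nhr-68 had an optimal peak at pooled rank 9, and nhr-114 a next-ranked region at pooled rank 1605 (rank 1787 in replicate 1 and 2198 in replicate 2). Neither nhr-10 itself nor unc-119, whose mutation the strain carries, had a next-ranked or optimal summit in the window. Within 40 kb centred on nhr-10 there were 3 next-ranked regions and 3 optimal peaks. Around the shunt genes, unc-119, nhr-68 and nhr-114 the same span held 0 to 2 of each. The strain also carries nhr-10 sequence in the insertion, and whether its reads add to the regions around nhr-10 was not tested. The fact that acdh-1 lacks a summit in the window says nothing about binding elsewhere.

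Genes of the vitamin B12-dependent route and of methionine metabolism also appeared. Of 6 genes of the B12-dependent breakdown of propionate, mmcm-1, the methylmalonyl-CoA mutase, had a next-ranked summit (rank 1354 in replicate 1 and 1650 in replicate 2). Of 14 genes of the methionine and S-adenosylmethionine cycle, 3 had one. They were metr-1, the methionine synthase (1376 and 20572), pmt-1, a phosphoethanolamine methyltransferase (465 and 897, 200 bp from an optimal summit), and mthf-1, the methylenetetrahydrofolate reductase (1320 and 8915). The ranks of metr-1 and mthf-1 thus differed more than 5-fold between replicates. In the tricarboxylic acid and glyoxylate cycle 4 of 23 genes had a next-ranked summit and another 4 an optimal one. The next-ranked ones were dld-1, the dihydrolipoyl dehydrogenase (4129 and 507), idhg-1 and idhb-1, subunits of isocitrate dehydrogenase, and sdha-1 of succinate dehydrogenase (875 and 2357).

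Lists of lipid genes had shares above the 4.97% of all genes. Of 19 genes of fatty acid synthesis, elongation and desaturation, 5 had a next-ranked summit. Among them were the desaturases fat-6 (rank 512 in replicate 1 and 4012 in replicate 2) and fat-5 (4040 and 4757), and the elongase elo-1 (3349 and 1130). The fat-6 window also held an optimal summit, 857 bp from the next-ranked one. Of 35 acyl-CoA synthetase and dehydrogenase genes 6 had a next-ranked summit, with acs-1 at ranks 822 and 1800. Of 17 genes of peroxisomal beta-oxidation 4 had one, including the thiolase daf-22, which had no region in replicate 1 and rank 860 in replicate 2. In the vacuolar ATPase list 4 of 20 genes had one. Optimal summits were found for 3, 4, 3 and 3 genes of these lists.

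**Figure D5:**
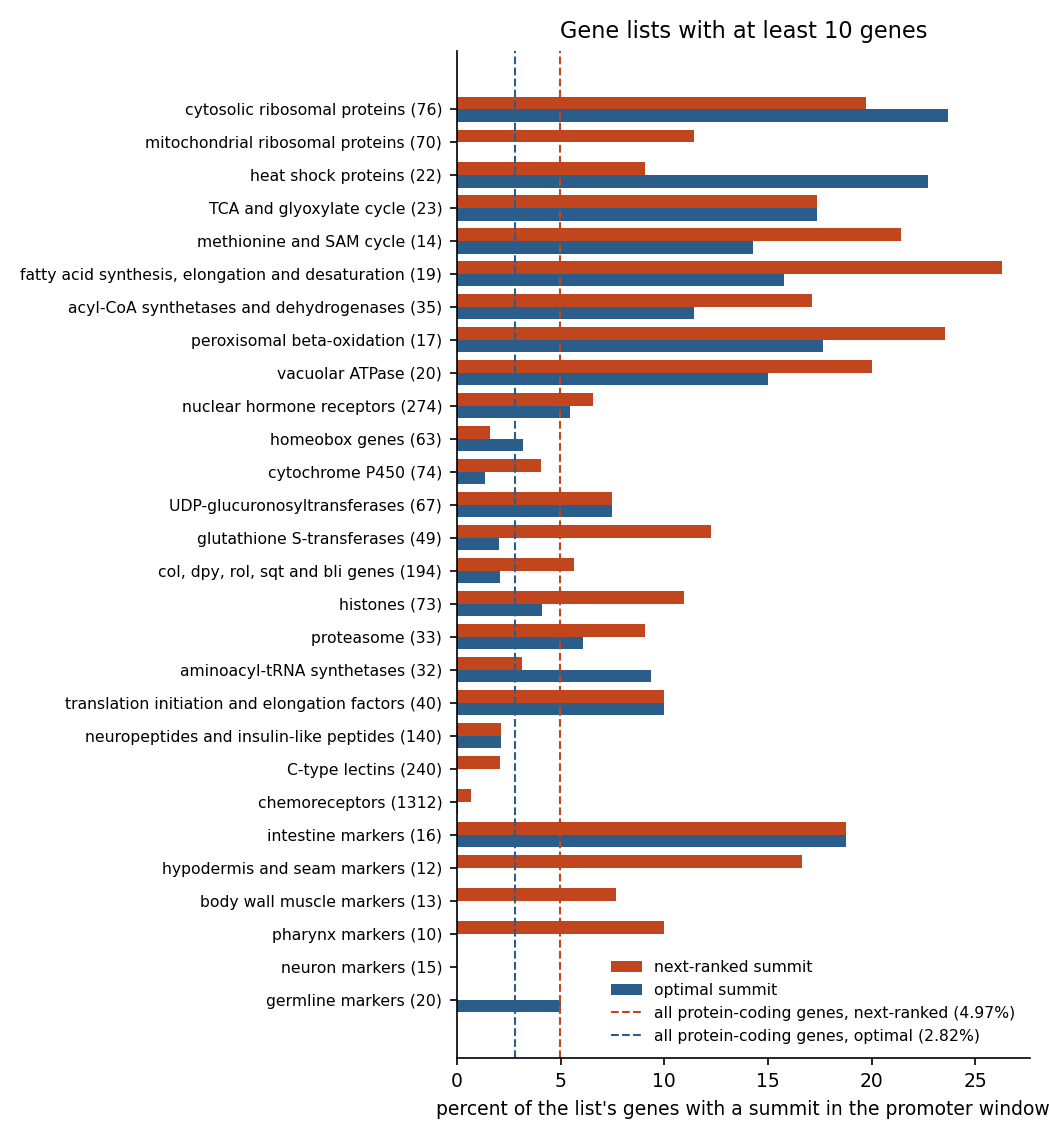
Percent of the genes of each list (y, with the number of genes) whose promoter window holds a next-ranked summit (upper bar) or an optimal summit (lower bar), for lists of at least 10 genes, with dashed lines at the 4.97% and 2.82% of all protein-coding genes. Lists of fatty acid and peroxisomal enzymes lie above the background line, and chemoreceptors lie below it.

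Among receptors, 18 of 274 nuclear hormone receptor genes (6.57%) had a next-ranked summit, 15 had an optimal one and 0 had both. They included nhr-49, a regulator of fat metabolism (rank 676 in replicate 1 and 10346 in replicate 2), daf-12, the receptor that controls dauer formation (6971 and 2001), and nhr-46, which had rank 689 in replicate 1 and no region in replicate 2. The share of the list was close to the 4.97% of all genes. Of all genes with a next-ranked summit 9.06% also had an optimal one. With 18 receptor genes, whether 0 differs from that share was not tested.

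Ribosomal protein genes had next-ranked summits for both cytosolic and mitochondrial subunits. Of 76 cytosolic genes 15 (19.7%) had a next-ranked summit, 18 had an optimal one and 3 had both. Among the 15 were rpl-41.2 (3432 and 581), rpl-1 (695 and 1029, 234 bp from an optimal summit) and rps-23 (1314 and 2011). Of 70 mitochondrial genes 8 (11.4%) had a next-ranked summit, with mrpl-15 at ranks 1029 and 1066, and 0 had an optimal one. Glutathione S-transferase genes, which act in detoxification, had a next-ranked summit in 6 of 49 genes, against 1 with an optimal one. Of 73 histone genes 8 had a next-ranked summit, against 3 with an optimal one. Neighbouring genes can share a summit, so the 8 histone genes rest on 6 regions, the 15 cytosolic ribosomal genes on 13 and the 8 mitochondrial ones on 7.

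Some large families had shares below the 4.97% of all genes, and other lists lay near or above it. A next-ranked summit was found for 9 of 1312 chemoreceptor genes (0.686%), against 1 with an optimal one, 5 of 240 C-type lectin genes (2.08%), against 0 optimal, 3 of 140 neuropeptide and insulin-like genes, against 3 optimal, and 1 of 63 homeobox genes, against 2 optimal. Genes named col, dpy, rol, sqt or bli, a list of mostly cuticle collagens that also takes in other cuticle genes, had 11 in 194 (5.67%), near the share of all genes, against 4 optimal. Counted in genes, UDP-glucuronosyltransferases had 5 in 67 (7.46%), against 5 optimal, and cytochrome P450 genes 3 in 74 (4.05%), against 1 optimal. Heat shock proteins had 2 in 22 (9.09%), against 5 optimal. Proteasome genes had 3 in 33, against 2 optimal, translation factors 4 in 40, against 4 optimal, and aminoacyl-tRNA synthetases 1 in 32, against 3 optimal. Of the tissue markers, next-ranked summits were found for 3 of 16 intestinal genes (cpr-1, pgp-1 and lbp-6), 2 of 12 hypodermal and seam genes, 1 of 13 muscle genes (unc-60), 1 of 10 pharyngeal genes (pha-4), 0 of 15 neuronal genes and 0 of 20 germline genes. None of the 6 vitellogenin genes, which are expressed in the adult intestine, had a next-ranked or an optimal summit.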

How the data were processed

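ChIP-seq of eGFP-tagged NHR-10 was analysed as 1 group of 2 biological replicates, grouped by the labels, with fragments of 150 to 350 bp per the labels. The authors' deposited ce11 lists, in narrowPeak format, were used: peaks and background per replicate, the same for both replicates together, and the optimal list after thresholding by the irreproducible discovery rate. Per the descriptions deposited with the files, the lists were made with 1 control alignment. For the aligner, the peak caller, their versions and the threshold, the sources used here give nothing. The signal of each region is the authors' deposited value, on a scale that is not stated, so it was used to rank within a list and not compared between lists. The −log10 q-value per region is also the authors' deposited value and ranked nothing. The ce10 lists served as an alternative only. The lists hold no read counts, so depth and its precision are unknown.

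The pooled list had 17447 entries, of which 2 were repeats. There were 994 optimal peaks, which took the first ranks of the pooled list. Strong and top-ranked replicate regions are the 2994 and 994 strongest of a list. Motif windows were 101 bp long. Support meant an overlap of at least 1 bp, and the rank of a region in a replicate is that of the strongest region overlapping it. Gene models were those of Ensembl 115, and bases were read from a genome of the same build (ce11, WBcel235). Summits were assigned to every gene whose window held them. Shares of regions were compared by two-sided Fisher's exact tests (SciPy 1.17.1, statsmodels 0.14.6, Python 3.11.15), adjusted by Benjamini-Hochberg over 6 chromosomes and 6 motifs, with a threshold of 0.05. Functions were tested on simulated regions.

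The regions, the 31 gene lists and the motifs were chosen with earlier results of these data known, and 2 list names were not in the annotation. Named genes were those at the 10 promoter regions of highest signal, the 10 strongest of those among the 994 strongest of both replicates, the 5 strongest outside promoters, the 3 regions at either end and the 3 optimal peaks above them, all propionate shunt genes, nhr-68, nhr-114, unc-119 and nhr-10, and up to 3 per gene list with at least 3 summits. The genes mmcm-1, idhb-1, nhr-49, daf-12, nhr-46, unc-60 and pha-4 fall outside this rule and were chosen after their values were seen. Alternatives covered the build, overlap, number of regions, windows, regions near optimal peaks and each replicate alone, and for motifs other than TGATAA they were added after seeing the data, as was leaving out regions that overlap an optimal peak. For each replicate alone, the 994 strongest regions of its list stood for the optimal peaks and the following 2000 for the next-ranked regions.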

Additional observations from a re-analysis of the deposited data

How the results depend on the processing

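Support in both replicate lists was 91.2% where a replicate region had to cover 50% of the region, 72.4% where summits had to lie within 100 bp, 98.4% with the next 1000 regions and 90.85% with the next 4000, and 96.5% in the ce10 build. The share strong in both replicates was 26.8%, 17.25%, 49.7% and 19.5% under the same settings, 29.3% without regions within 1000 bp of an optimal summit and as much without regions overlapping an optimal peak, 3.65% for top-ranked in both and 69.65% with lists of strongest regions 2 times as long. The promoter difference from optimal peaks was -2.72 points with a 2000-bp window, -3.52 with whole regions, -3.69 with the next 1000, -3.41 without regions near optimal summits and -2.90 among regions strong in both replicates, none of which passed. It passed in the other 4, between -6.82 points (next 4000) and -3.87 points. That from weaker regions kept its direction and call in all 9 alternatives, and the X share and the GAGAGA difference kept theirs in all 7 and 8. Genes with a next-ranked summit numbered 530 with the next 1000, 1758 with the next 4000 and 330 among those strong in both replicates, and those with no optimal summit 487, 1633 and 269. The TGATAA difference reversed to -1.23 points with the next 4000, -0.78 with 30 bp and -1.24 with 100 bp on either side of the summit, and to between -1.52 and -0.71 with regions ranked by 1 replicate alone. The AGGTCA difference was between -0.924 and 0.684 points by 1 replicate alone, and reversed without replicate 2. The TTCNNGAA difference reversed to 0.523 points with the next 4000, 0.680 among regions strong in both replicates, 0.0343 with 30 bp and 1.00 with 100 bp on either side, and 0.376 to 0.522 by 1 replicate alone. None of these reversed values passed the test, and the causes were not tested. No paired analysis was possible because there was 1 group. Depth is unknown, so its limit on weak regions cannot be stated.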
